A study of Mus musculus with 12 samples.

Results

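The BCL2 family decides whether the outer membrane of the mitochondrion stays closed or is opened to start apoptosis, and 10 of its genes were followed here in airway eosinophils that did or did not carry TREM-1 at the surface. The members were chosen by symbol: the pro-survival genes Mcl1, Bcl2 and Bcl2l1, and the pro-death genes Bcl2l11, Bid, Bad, Bbc3, Pmaip1, Bax and Bak1. All 10 were in the deposited table of 39666 genes, and all 10 were among the 18302 genes that passed the filter on low counts. The members and the gene lists around them were chosen with earlier results of these data known.

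Eosinophils came from pooled lung lavage of wild-type C57BL/6 mice, 8 to 12 weeks old, in which allergic airway inflammation had been induced. The mice received 20 µg ovalbumin with 4 mg alum on days 0 and 7, inhaled nebulized 1% ovalbumin for 40 minutes a day on days 16 to 18, and were killed on day 19. Each of 6 lavages was sorted, within the Siglec-F+ eosinophil gate, into TREM-1+ and TREM-1- cells, which gave 6 libraries of each. Both fractions therefore shared strain, allergen and time, there was no unchallenged group, and the mice behind a library were pooled. TREM-1 is an activating receptor of myeloid cells.

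In this family, the pro-survival proteins MCL1, BCL2 and BCL-XL (from Bcl2l1) hold BAX and BAK in check. BH3-only proteins, here BIM (Bcl2l11), BID, BAD, PUMA (Bbc3) and NOXA (Pmaip1), bind the pro-survival proteins or activate BAX and BAK, which then form pores that let cytochrome c out. Granulocytes live for a short time, and eosinophils are kept alive by interleukin-5, interleukin-3 and GM-CSF. MCL1 is a protein of short half-life on which mouse neutrophils depend, and Bcl2l11 is restrained in short-lived mouse myeloid cells by the neighbouring long noncoding RNA Morrbid.

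Total counts were 8626701 to 19274912 in TREM-1+ libraries and 16513387 to 21234053 in TREM-1- libraries, lower in the TREM-1+ library of 6 of 6 pairs. Each member had between 91 and 31150 counts per library. Lavages 1 and 2 were closer to each other than any other pair of lavages in both fractions and may not be independent. Values of Bcl2, Bcl2l1, Bid and Bcl2l11 are therefore also given for lavages 1 and 2 and for lavages 3 to 6. Trem1, whose product was sorted on, averaged 93.1 ± 20.0 CPM (counts scaled by effective library size) in TREM-1+ cells, against 30.7 ± 8.12 CPM in TREM-1- cells (SD, n = 6 each), and so checks the labels only. The 12 eosinophil markers were all tested, 3 called higher and 6 lower, and their summed level was 4777.6 to 7287.6 CPM in TREM-1+ cells against 4957.8 to 7694.1 CPM in TREM-1- libraries. Of 13 T and innate lymphoid cell markers 11 were in the table, 9 of them called higher and 0 lower, and their sum was 10.6 to 134.5 CPM in TREM-1+ cells against 8.84 to 70.2 CPM in TREM-1- libraries, higher in 6 of 6 pairs. Of 12 neutrophil markers 7 were tested, 5 called higher and 2 lower, with sums of 1167.2 to 2100.9 CPM in TREM-1+ cells against 1515.9 to 2185.0 CPM in TREM-1- libraries, lower in 6 of 6 pairs. Among them Elane had 0 counts in every library and Mmp8, Camp, Lcn2 and Mpo were below 1 CPM on average. Most of the neutrophil sum came from the 2 markers called lower, Retnlg (1244.2 CPM in TREM-1+ cells against 1603.1 CPM in TREM-1-) and Mmp9 (184.8 against 274.9 CPM). S100a8, S100a9, Ltf, Ngp and Csf3r were each higher in TREM-1+ in 6 of 6 pairs. The median log2 fold change of the 7 was 0.92. Of 14 macrophage and monocyte markers 9 were tested, 4 called higher and 1 lower (687.5 to 1478.2 CPM summed in TREM-1+ and 896.0 to 1419.1 CPM in TREM-1-), while Marco, Fabp4, C1qa, C1qb and C1qc lay below 1 CPM on average over the 12 libraries (C1qb 1.03 CPM in TREM-1+ cells and 0.172 CPM in TREM-1- cells). B cell, dendritic cell and epithelial markers summed to at most 16.1, 30.3 and 40.5 CPM in TREM-1+ cells against 14.6, 21.6 and 74.8 CPM in TREM-1- libraries, and 0 of their 9 tested genes were called. The dendritic cell sum was higher in TREM-1+ in 6 of 6 pairs, with its 5 tested genes all above 0 (median log2 fold change 0.40).

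Promoter sequence is shown for Mcl1 and Bcl2, the survival genes with the smallest adjusted p below, and for Bcl2l11, a pro-death gene that was higher in TREM-1+ cells in 4 of 6 lavages. Each line gives the 250 bases before the RefSeq transcript start on the gene's strand, 5′ to 3′, from build GRCm38.p6, which is not the build named by the submitters. Bases just after the start shown were found in a GENCODE M21 transcript of the gene for Bcl2l11, but not for Mcl1 and Bcl2. Mcl1 lies on the plus strand at chr3:95658471-95658720, Bcl2 on the minus strand at chr1:106714291-106714540 and the first Bcl2l11 start on the plus strand at chr2:128125788-128126037. Capitals mark GC boxes (GGGCGG on either strand) and, in Bcl2l11, 1 FOXO site (GTAAACA) whose first base is 227 bases before the start.
Mcl1: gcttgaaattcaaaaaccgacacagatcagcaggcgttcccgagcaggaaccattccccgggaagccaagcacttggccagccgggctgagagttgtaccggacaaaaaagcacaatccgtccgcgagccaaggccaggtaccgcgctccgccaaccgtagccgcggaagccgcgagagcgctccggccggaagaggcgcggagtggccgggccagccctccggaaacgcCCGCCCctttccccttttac
Bcl2: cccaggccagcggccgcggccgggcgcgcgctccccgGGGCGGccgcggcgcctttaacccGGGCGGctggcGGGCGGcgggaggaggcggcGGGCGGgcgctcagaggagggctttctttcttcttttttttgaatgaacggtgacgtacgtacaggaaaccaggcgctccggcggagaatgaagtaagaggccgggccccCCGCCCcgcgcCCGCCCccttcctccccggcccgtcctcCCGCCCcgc
Bcl2l11: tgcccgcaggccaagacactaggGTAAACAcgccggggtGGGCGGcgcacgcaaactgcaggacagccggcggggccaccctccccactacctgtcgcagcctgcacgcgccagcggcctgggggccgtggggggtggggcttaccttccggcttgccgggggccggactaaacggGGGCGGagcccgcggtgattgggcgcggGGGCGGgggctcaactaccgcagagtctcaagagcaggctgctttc
The 15 start windows used here cover 9 members, all but Pmaip1, for which no sequence was used. The FOXO letters were found in 2 of these windows, the Bcl2l11 window above and 1 of Bbc3. In all 32851 promoter windows the share was 3.17%. GC boxes were in 10 of the 15 windows and in 32.7% of all. The letters TTCNNNGAA of a STAT site were in 0 of the 15 windows, where 7.02% of all windows hold them. Both strands were searched, and windows of 1 gene can overlap. A match of letters is a description and not a measured binding site.

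Within lavages, 5 of the 10 members were called lower in TREM-1+ eosinophils and 0 higher when libraries were scaled by trimmed mean of M values (TMM) factors, against 1 lower and 3 higher with library totals alone. With TMM factors, the lower members were the 3 survival genes, the BH3-only gene Bid and the pore gene Bak1. Over all tested genes 9.82% were called, 6.72% lower and 3.1% higher (edgeR, adjusted p below 0.05). That base includes genes of low level, whereas every member averaged at least 12.0 CPM. Among the 10957 genes of at least 5 CPM on average, fitted alone, 1896 were called, 1262 lower and 634 higher. The same 5 members were called lower in that fit. Levels of these 5 fell by 9.44% (Bcl2l1) to 26.8% (Bcl2). The median log2 fold change was -0.24 for the survival genes, 0.02 for the 7 pro-death genes and 0.004 for all tested genes. In bulk samples, a lower share of cells that express a gene and less RNA per cell cannot be told apart. The levels of every member overlapped between the fractions, so the calls rest on the comparison within lavages. Without the lavage as a block 0 of the 10 members were called (edgeR adjusted p from 0.193 for Bcl2 to 0.84 for Bcl2l1 among the 5), although the fold changes of these 5 moved by less than 0.01.

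**Figure D1:**
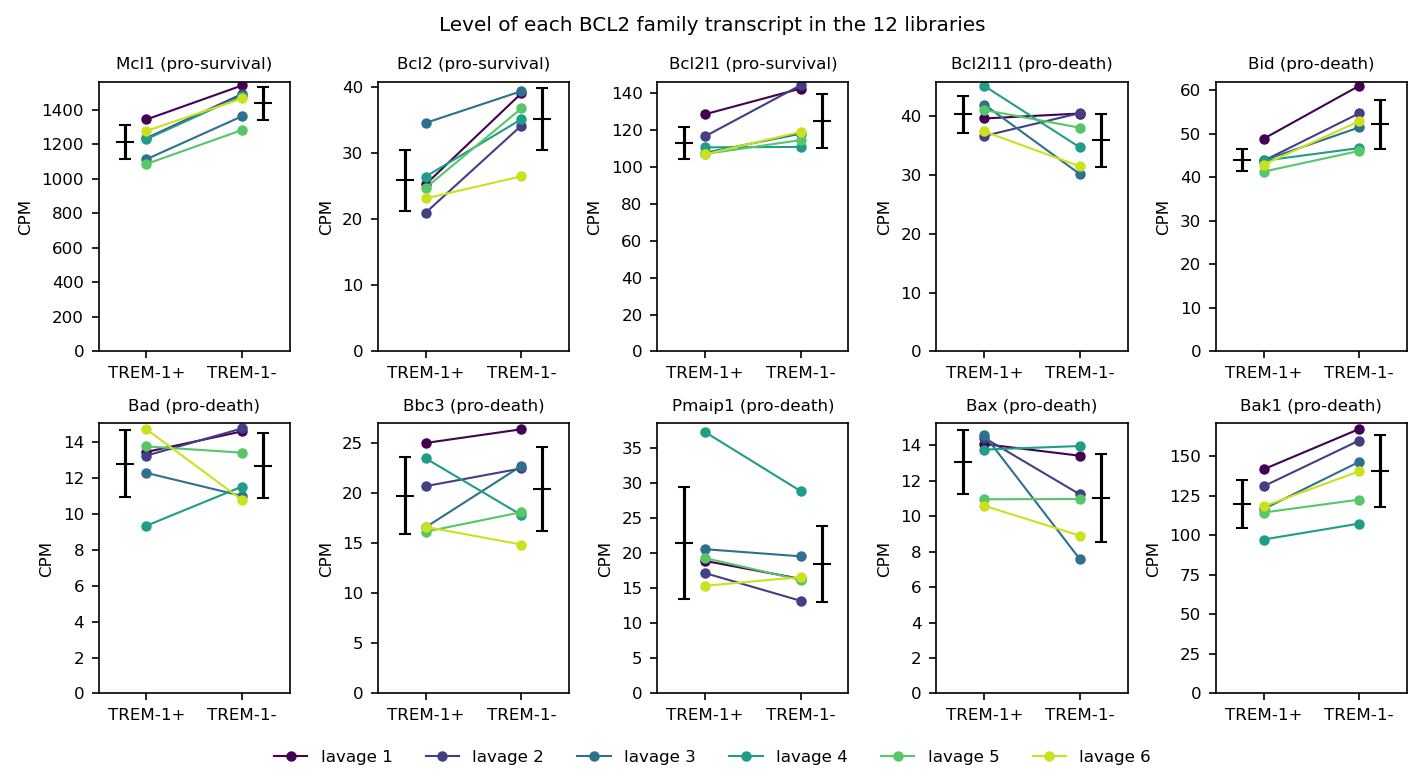
Level in CPM of each of the 10 transcripts in the TREM-1+ library (left) and the TREM-1- library (right) of each lavage, joined by lines; black bars are the mean ± SD of 6 libraries. The lines of Mcl1, Bcl2, Bcl2l1, Bid and Bak1 are lower at the TREM-1+ end in 6 of 6 lavages, while the other members cross.

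The calls depended on the scaling between libraries, and this bears on every direction given for the family. TMM factors were larger in the TREM-1+ library of 6 of 6 pairs. When only library totals were used, the median gene moved to 0.13 on the log2 scale, and the called genes split into 1880 higher and 376 lower, against 568 higher and 1229 lower with TMM factors. Under library totals Bcl2 was still called lower (-0.32 ± 0.09, SE, edgeR adjusted p = 0.0102). Mcl1 (-0.12, adjusted p = 0.053), Bak1 (-0.10, adjusted p = 0.228), Bid (-0.11, adjusted p = 0.306) and Bcl2l1 (-0.02, adjusted p = 0.887) were not called, and Bcl2l11 (0.30, adjusted p = 0.0153), Pmaip1 (0.33, adjusted p = 0.027) and Bax (0.39, adjusted p = 0.0354) were called higher. The members kept the same order by fold change under both scalings.

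**Figure D2:**
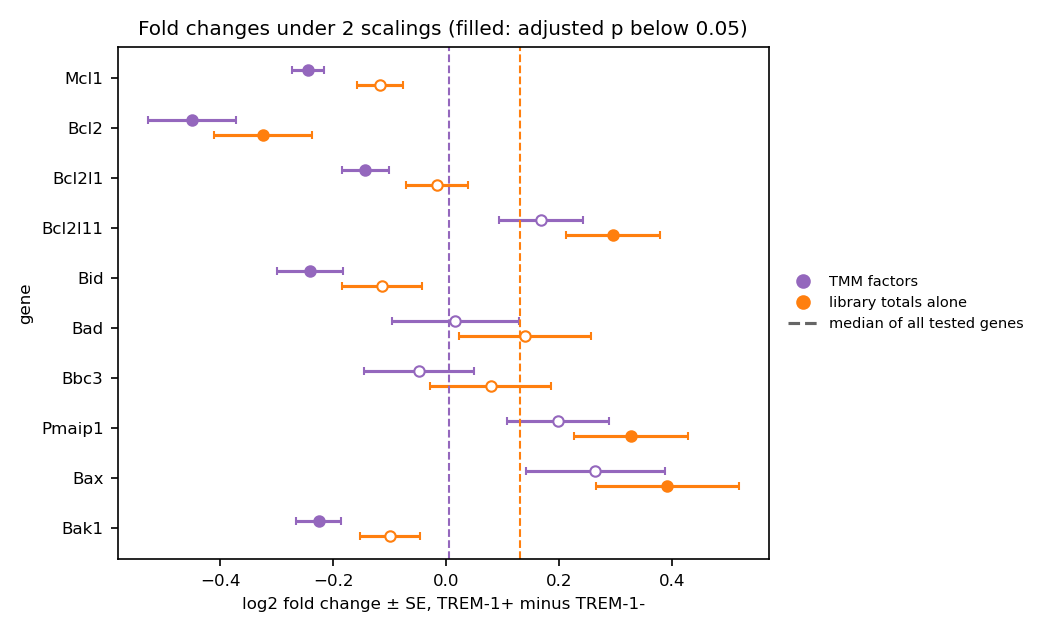
Log2 fold change ± SE (TREM-1+ minus TREM-1-) of each member with TMM factors and with library totals alone; filled points have an adjusted p below 0.05 and dashed lines mark the median of all tested genes, 0.004 and 0.13. Every member moves to the right by about the same amount, and Bcl2 is the member called lower under both.

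Among the survival genes, Bcl2 had the largest difference. Bcl2 (NCBI gene 12043) encodes the founding member of the family, a guardian abundant in lymphocytes. Its lowest, median and highest levels were 21.01, 25.04 and 34.6 CPM in TREM-1+ libraries, against 26.5, 35.98 and 39.4 CPM in TREM-1- libraries. Lavage by lavage, 1 to 6, Bcl2 stood at 25.3, 21.01, 34.6, 26.5, 24.8 and 23.2 CPM in TREM-1+ cells, against 39.1, 34.2, 39.4, 35.2, 36.8 and 26.5 CPM in TREM-1- cells. Every TREM-1+ library was below its partner, with the widest gaps in lavages 1, 2 and 5 and the narrowest in lavages 3 and 6. The means were 25.9 ± 4.67 CPM in TREM-1+ cells against 35.2 ± 4.73 CPM in TREM-1- eosinophils (SD, n = 6 each), a log2 fold change of -0.45 ± 0.08 (SE, edgeR adjusted p = 9.71e-05). In lavages 1 and 2 alone the fold change was -0.64 (adjusted p = 7.64e-09), but these 2 lavages may not be independent, so that p may be too small. In lavages 3 to 6 alone it was -0.34 (adjusted p = 0.0277), and the difference between these sets was not tested. T and innate lymphoid cell markers, which were higher in TREM-1+ libraries, summed to 10.6 to 12.5 CPM in TREM-1+ cells against 8.84 to 9.70 CPM in TREM-1- libraries of lavages 1 and 2, and to 67.8 to 134.5 CPM in TREM-1+ cells against 37.6 to 70.2 CPM in TREM-1- libraries of lavages 3 to 6. Bcl2 was lower in the fraction in which those markers were higher, and their part in its level was not tested.

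Mcl1 (NCBI gene 17210) was the most abundant member and had the most even difference. Its lowest, median and highest levels were 1086.2, 1232.8 and 1344.0 CPM in TREM-1+ libraries, against 1283.0, 1474.0 and 1541.2 CPM in TREM-1- libraries. The ranges overlapped, but within each lavage the TREM-1+ library was lower, by between 0.20 and 0.29 on the log2 scale. The mean was 1214.5 ± 98.0 CPM in TREM-1+ cells against 1437.8 ± 95.9 CPM in TREM-1- eosinophils (SD, n = 6 each), a log2 fold change of -0.24 ± 0.03 (SE, edgeR adjusted p = 2.01e-07). Leaving out any 1 lavage gave values from -0.24 to -0.25, each called.

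Bcl2l1 (NCBI gene 12048), whose main product BCL-XL guards mitochondria in many blood cells, had the weakest call of the survival genes. Its levels ran from 106.8 through a median of 109.1 to 128.5 CPM in TREM-1+ libraries and from 110.8 through 118.5 to 144.2 CPM in TREM-1- libraries. In lavage 4 the fractions were almost equal, at 110.6 CPM in TREM-1+ cells against 110.8 CPM in TREM-1-, and in the other lavages TREM-1+ was lower. The means were 112.8 ± 8.51 CPM in TREM-1+ cells against 124.8 ± 14.6 CPM in TREM-1- libraries (SD, n = 6 each; log2 fold change -0.14 ± 0.04, SE, edgeR adjusted p = 0.0239). The call was lost without lavage 1 (adjusted p = 0.0882), without lavage 2 (0.139), without lavage 6 (0.0878) and in lavages 3 to 6 alone (-0.10, adjusted p = 0.345). In lavages 1 and 2 alone, which may not be independent, Bcl2l1 was at -0.21 (adjusted p = 0.00439), and the difference between the sets was not tested.

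Of the pore formers, Bak1 was called lower and Bax was not called. BAK, the product of Bak1 (NCBI gene 12018), sits in the outer mitochondrial membrane, whereas BAX (NCBI gene 12028) moves there from the cytosol. Bak1 had 97.2, 117.3 and 141.5 CPM as lowest, median and highest level in TREM-1+ libraries, against 107.2, 143.3 and 167.0 CPM in TREM-1- libraries, and TREM-1+ was lower in 6 of 6 pairs. The fitted log2 difference of Bak1 was -0.23 ± 0.04 (SE, edgeR adjusted p = 0.000139). From lavage 1 to lavage 6, Bax had 14.1, 14.4, 14.6, 13.8, 10.95 and 10.6 CPM in TREM-1+ libraries and 13.4, 11.2, 7.57, 14.0, 10.97 and 8.90 CPM in TREM-1- libraries. Lavage 3 had by far the widest gap in Bax, 0.94 on the log2 scale, and lavages 4 and 5 had almost none. The fitted value for Bax was 0.26 ± 0.12 (SE, edgeR adjusted p = 0.219), and without lavage 3 it was 0.13 (adjusted p = 0.624). The Bax to Bak1 ratio within a library, which no scaling can move, was 0.110 ± 0.0198 in TREM-1+ and 0.0809 ± 0.0275 in TREM-1- libraries (SD, n = 6 each). It was higher in TREM-1+ in 6 of 6 pairs, as was the ratio to Bak1 of 27.3% of all tested genes.

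Among the BH3-only genes Bid was called and the rest were not. Bid (NCBI gene 12122) encodes the member that caspase-8 cleaves into an active form, and so joins death receptors to mitochondria. It had 41.3, 43.8 and 48.9 CPM as lowest, median and highest level in TREM-1+ libraries, against 46.1, 52.2 and 61.1 CPM in TREM-1- libraries. TREM-1+ was lower in 6 of 6 pairs, with a log2 fold change of -0.24 ± 0.06 (SE, edgeR adjusted p = 0.00452), although the call was lost in lavages 3 to 6 alone (-0.20, adjusted p = 0.151). In lavages 1 and 2 alone, which may not be independent, Bid was at -0.30 (adjusted p = 0.0022), and the difference between the sets was not tested. The log2 change of Bid was close to that of Mcl1, and the ratio of the transcripts was 0.0364 ± 0.0021 in TREM-1+ and 0.0363 ± 0.0027 in TREM-1- libraries (SD, n = 6 each), higher in 3 of 6 pairs.

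Bcl2l11 (NCBI gene 12125) encodes BIM, which binds every pro-survival member and is the BH3-only protein through which cytokine withdrawal kills many blood cells. From lavage 1 to lavage 6 its level was 39.6, 36.7, 42.0, 45.2, 41.1 and 37.4 CPM in TREM-1+ libraries and 40.5, 40.5, 30.2, 34.7, 38.1 and 31.5 CPM in TREM-1- libraries. TREM-1+ was below its partner in lavages 1 and 2 and above it in lavages 3 to 6. The fit over all lavages gave 0.17 ± 0.07 (SE, edgeR adjusted p = 0.188). In lavages 1 and 2 alone it was -0.07 (adjusted p = 0.784) and in lavages 3 to 6 alone 0.30 (adjusted p = 0.0365). The difference between these sets was not tested. Without lavages 3 and 4 the fold change of Bcl2l11 was 0.04 (adjusted p = 0.868). Leaving out 1 lavage gave 0.11 (without lavage 3) to 0.23 (without lavage 2), never called. The summed macrophage and monocyte markers split the same way: they were lower in TREM-1+ libraries in lavages 1 and 2 (849.1 and 687.5 CPM, against 1019.6 and 896.0 CPM in TREM-1-) and higher in lavages 3 to 6 (1387.0, 1169.8, 1468.6 and 1478.2 CPM, against 907.4, 973.3, 1357.1 and 1419.1 CPM in TREM-1-). This split is one of the sum and not of most single markers. Ly6c2, a large part of the sum (539.6 CPM in TREM-1+ cells against 667.1 CPM in TREM-1-), was lower in 6 of 6 pairs. Mrc1, Chil3, Fabp5, Plet1, Fn1 and Ccr2 were each higher in TREM-1+ in 6 of 6 pairs, and Csf1r and Mertk each in 2. The lymphoid marker sum was higher in TREM-1+ in 6 of 6 pairs, and at higher levels in lavages 3 to 6. The part of either in the Bcl2l11 values was not tested.

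NOXA, the product of Pmaip1 (NCBI gene 58801), binds MCL1 by preference and promotes its breakdown. Pmaip1 had 15.3, 19.1 and 37.3 CPM as lowest, median and highest level in TREM-1+ libraries, against 13.2, 16.5 and 28.8 CPM in TREM-1- libraries, and both highest values were in lavage 4. It was above its partner in 5 of 6 pairs, at a fitted value of 0.20 ± 0.09 (SE, edgeR adjusted p = 0.209). Bbc3 (NCBI gene 170770), whose product PUMA is induced by p53, had 19.8 ± 3.88 CPM in TREM-1+ cells against 20.4 ± 4.202 CPM in TREM-1- libraries (SD, n = 6 each; -0.05 ± 0.10, SE, edgeR adjusted p = 0.864). Bad (NCBI gene 12015), whose product is held inactive by phosphorylation under growth factor signals, had 12.8 ± 1.87 CPM in TREM-1+ cells against 12.7 ± 1.81 CPM in TREM-1- libraries (SD, n = 6 each; 0.02 ± 0.11, SE, edgeR adjusted p = 0.965). Neither had a constant direction, Bbc3 being higher in 2 and Bad in 3 of 6 pairs, and with standard errors of 0.10 and 0.11 a difference as small as that of Bcl2l1 was not detectable in them.

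**Figure D3:**
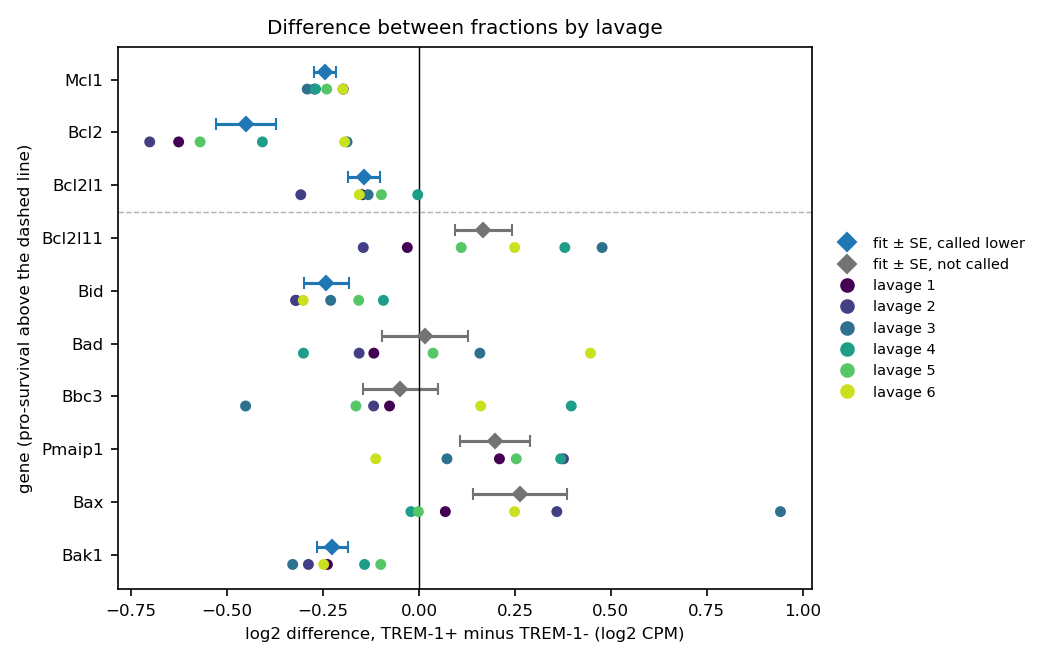
Log2 difference of each member, TREM-1+ minus TREM-1-: diamonds are the fitted log2 fold change ± SE over 6 pairs, dots the 6 lavages. The 6 dots of Mcl1, Bcl2, Bcl2l1, Bid and Bak1 lie below 0, those of Bcl2l11 split between lavages 1 and 2 and lavages 3 to 6, and Bax has 1 dot at 0.94 from lavage 3.

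Flipping the signs of the 6 paired log2 differences (an exact permutation test, two-sided) gave p = 0.03125 for each of the 5 called members, the smallest that 64 sign patterns allow. For the members not called the exact test gave 0.125 for Bax, 0.0938 for Pmaip1, 0.188 for Bcl2l11, 0.688 for Bbc3 and 0.875 for Bad. With TMM factors, the 5 called members of the 10 were lower in 6 of 6 pairs, against 8.31% of all tested genes. Higher in 6 of 6 pairs were 0 members, against 5.08% of all.

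Ratios of transcripts within a library do not depend on scaling, and they set pro-death against survival members directly. Bcl2l11 over Mcl1 was 0.0334 ± 0.0044 in TREM-1+ and 0.0250 ± 0.0032 in TREM-1- libraries (SD, n = 6 each), and higher in TREM-1+ in 6 of 6 pairs, by 0.13 to 0.77 on the log2 scale. The smallest gaps were again in lavages 1 and 2. Pmaip1 over Mcl1 was 0.0177 ± 0.0066 in TREM-1+ and 0.0129 ± 0.0037 in TREM-1- libraries, also higher in 6 of 6 pairs. As Mcl1 fell, 33.9% of all tested genes had a ratio to it that was higher in 6 of 6 pairs, so such a count is common and not particular to these genes. Bcl2l11 over Bcl2 was 1.58 ± 0.19 in TREM-1+ and 1.03 ± 0.16 in TREM-1- libraries, and Bax over Bcl2 was 0.514 ± 0.0984 in TREM-1+ and 0.316 ± 0.0686 in TREM-1- libraries (SD, n = 6 each). Both were higher in TREM-1+ in 6 of 6 pairs, as was the ratio to Bcl2 of 42.8% of all tested genes. Bak1 over Mcl1 moved in no constant direction (0.0987 ± 0.0109 in TREM-1+ and 0.0977 ± 0.0138 in TREM-1-, higher in 2 of 6 pairs).

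**Figure D4:**
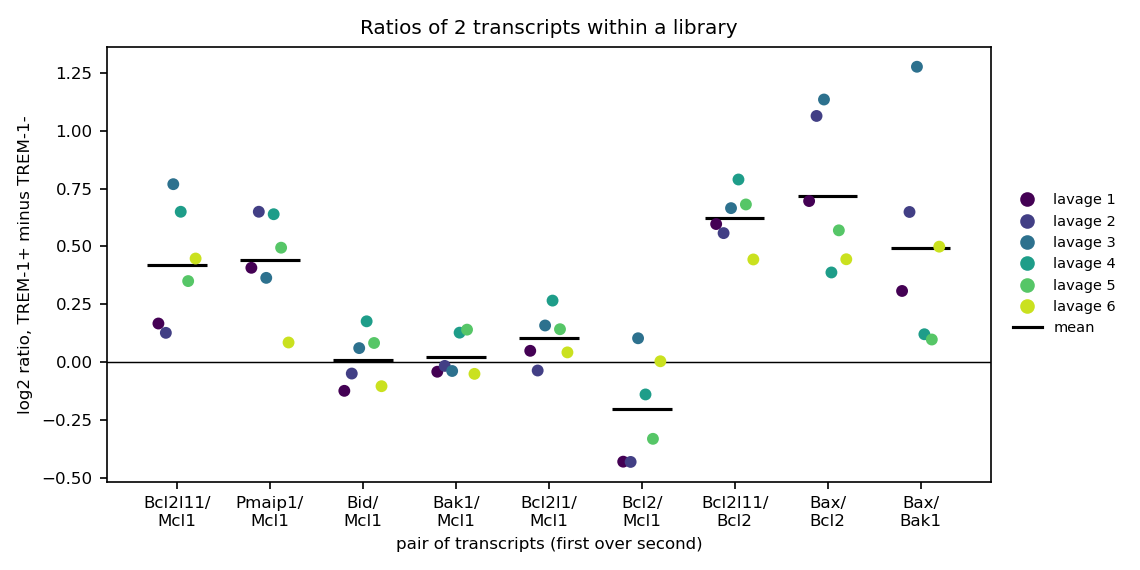
Difference between fractions (TREM-1+ minus TREM-1-) in the log2 ratio of 2 transcripts of the same library; dots are the 6 lavages and bars their mean. Bcl2l11 and Pmaip1 over Mcl1, Bcl2l11 and Bax over Bcl2, and Bax over Bak1 lie above 0 in 6 of 6 lavages, while Bid and Bak1 over Mcl1 scatter around 0.

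Summed over members, the log2 ratio of pro-death to survival CPM was -2.32 ± 0.08 in TREM-1+ and -2.46 ± 0.11 in TREM-1- libraries (SD, n = 6 each). The paired difference was 0.14 ± 0.10 (SD, n = 6), positive in 6 of 6 lavages, and ran from 0.03 in lavage 1 to 0.30 in lavage 4. With TMM factors both sums were lower on average in TREM-1+ cells. The pro-death sum averaged 271.2 CPM in TREM-1+ cells against 291.1 CPM in TREM-1-, higher in 1 of 6 pairs. The survival sum averaged 1353.2 CPM against 1597.8 CPM, higher in 0 of 6 pairs. Mcl1 makes up most of the survival sum, and 33.9% of all tested genes had a ratio to Mcl1 that was higher in 6 of 6 pairs. Without Mcl1 the paired difference was 0.10. With members weighted equally, as the mean of log2 CPM, the difference was 0.30. The members were chosen with results known, so these are descriptions without a test.

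Per length of transcript, Mcl1 outweighed all other members. In CPM per kilobase of the longest coding transcript, Mcl1 had 355.3 ± 28.7 in TREM-1+ and 420.7 ± 28.1 in TREM-1- libraries (SD, n = 6 each). On that scale it made up 88.2% of the 3 survival genes in TREM-1+ and 88.7% in TREM-1- libraries. Bak1 (50.2 CPM per kilobase) and Bcl2l1 (43.9) followed in TREM-1+ libraries, with ranges that overlapped, and then Bid (20.2), apart from its neighbours on either side. Bax (11.9), Bbc3 (10.9), Bad (8.35), Bcl2l11 (8.01) and Pmaip1 (7.85) formed a run in which each overlapped the next, and Bcl2 (3.60) was lowest and overlapped none. In TREM-1- libraries the order was the same except that Bbc3 stood above Bax, and there the ranges of Bcl2 and Pmaip1 overlapped. The order rests on the transcript chosen: with the median length of coding transcripts Bbc3 ranked 4 of 10 in both fractions.

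Over the 12 libraries, the profile closest to that of Mcl1, by root mean square difference of centred log2 CPM, belonged to Smim3 (0.036), followed by Zfp36l2 (0.058) and Nsd3 (0.060), where the median of 10966 genes was 0.27. Closest to Bak1 were Apobr (0.038) and Rgs19 (0.058), against a median of 0.28, and closest to Bid were Cpne1 (0.055), Sharpin (0.070) and Vdac2 (0.071), against 0.26. Vdac2 was also the closest to Bcl2l1 (0.056, median 0.24), before Thrap3 (0.057) and Dusp11 (0.060). Bcl2 was farther from its nearest genes, Tiam1, Acot7 (both 0.15) and Padi2 (0.16), against 0.38. For Bcl2l11 the nearest was Tbrg4 (0.066), then Sec13 (0.088) and Thoc2l (0.094), against 0.27. These values also reflect what all genes of a library share.

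The wider family held no called gene. Of 15 further genes, 10 were tested, with a median log2 fold change of 0.03, where 9.82% of all tested genes were called. The survival genes Bcl2a1a, Bcl2a1b and Bcl2a1d, near-identical copies whose reads may be split between them, had 44.0 ± 7.40, 93.3 ± 12.0 and 44.0 ± 9.45 CPM in TREM-1+ cells against 49.2 ± 3.73, 96.5 ± 18.1 and 42.6 ± 9.33 CPM in TREM-1- libraries (SD, n = 6 each). Their fitted values were -0.17 ± 0.06 (SE, edgeR adjusted p = 0.115), -0.04 ± 0.05 (0.755) and 0.05 ± 0.07 (0.801). Bcl2l2, a guardian (1.59 CPM in TREM-1+ cells against 1.52 CPM in TREM-1-), and Bmf, a BH3-only gene (7.40 CPM in TREM-1+ cells against 7.09 CPM in TREM-1-), were low. Bcl2l10, Bok, Bik, Hrk and Bcl2l14 lay below 1 CPM and were not tested.

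Over 8 lists of the death pathway, the wider family included, 96 of 104 genes were tested. With TMM factors 22.9% were called, against 9.82% of all tested genes (6.72% lower and 3.1% higher). Of the 96, 20 were lower and 2 higher, at a median of -0.06. Among the 10957 genes of at least 5 CPM on average, fitted alone, 1896 were called, which included 24 genes of these lists. With library totals alone the split turned round, to 12 higher and 2 lower, so the following directions hold relative to the median gene. Library totals thus called 14 of the 96 genes, against 2256 of all 18302 tested, a smaller excess over all genes than with TMM factors. Pim1 and Klf2 were called lower, and Parp1 and Txnip higher, under both scalings. By list, the share called with TMM factors was 0% in the wider family and the inhibitors of apoptosis. It was 8.33% at the mitochondrion and 18.2% to 35.7% in the other lists.

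Downstream of the pore, the apoptosome genes Apaf1 and Casp9 were not called, while Casp8 was lower with TMM factors. Apaf1, the scaffold that cytochrome c assembles, had 156.0 ± 10.7 CPM in TREM-1+ cells against 157.1 ± 15.1 CPM in TREM-1- libraries (SD, n = 6 each; edgeR adjusted p = 0.943), and Casp9, the initiator caspase it activates, 47.3 ± 6.70 CPM in TREM-1+ cells against 45.7 ± 8.03 CPM in TREM-1- (0.712). Of 14 genes in that list 4 were lower and 1 higher with TMM factors. Casp8 (61.5 ± 10.01 CPM in TREM-1+ cells against 74.9 ± 13.2 CPM in TREM-1-; log2 fold change -0.28 ± 0.05, adjusted p = 0.000234), which cleaves BID, and the lamin gene Lmnb1 (-0.26 ± 0.03, adjusted p = 1.15e-06), a caspase substrate, were lower in 6 of 6 pairs. Neither was called with library totals alone (adjusted p = 0.109 for Casp8 and 0.0651 for Lmnb1). Parp1, a DNA repair enzyme that caspases cleave, was higher under both scalings, at 4.21 ± 1.42 CPM in TREM-1+ cells against 2.67 ± 0.66 CPM in TREM-1- (0.64 ± 0.21, adjusted p = 0.0443).

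At the mitochondrion, 1 of 12 genes was lower and 0 were higher with TMM factors, against 0 lower and 1 higher with library totals alone. The lower gene was Vdac2, a channel of the outer membrane that binds BAK, with 144.1 ± 10.5 CPM in TREM-1+ cells against 165.2 ± 17.5 CPM in TREM-1- libraries (-0.20 ± 0.04, SE, edgeR adjusted p = 0.000593; -0.07 and adjusted p = 0.423 with library totals alone). Cycs, which encodes cytochrome c, was not called (0.10 ± 0.08, adjusted p = 0.544). Of 5 inhibitor of apoptosis genes 0 were called, Xiap, a direct caspase inhibitor, having 283.9 ± 23.5 CPM in TREM-1+ cells against 281.5 ± 31.5 CPM in TREM-1- (adjusted p = 0.878), although Xiap (0.14, adjusted p = 0.0417) and Birc3 (0.14, adjusted p = 0.0386) were called higher with library totals alone.

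Upstream, 6 of 17 genes of the cytokine survival signal were lower and 0 higher with TMM factors, at a median of -0.08. With library totals alone 1 was lower and 1 higher, at a median of 0.04. Pim1, a survival kinase induced by STAT5, had 561.0 ± 152.4 CPM in TREM-1+ cells against 696.4 ± 166.7 CPM in TREM-1- libraries (-0.32 ± 0.03, SE, edgeR adjusted p = 1.48e-08; -0.19, adjusted p = 0.00413 with library totals alone). Jak1 (-0.14 ± 0.03) was lower with TMM factors only. Morrbid (-0.17 ± 0.04, adjusted p = 0.00454) was also called with TMM factors only, with 99.0 ± 6.49 CPM in TREM-1+ cells against 111.6 ± 8.20 CPM in TREM-1- libraries and a lower value in 6 of 6 pairs. The Bcl2l11 to Morrbid ratio, free of scaling, was 0.410 ± 0.0490 in TREM-1+ and 0.323 ± 0.0403 in TREM-1- libraries (SD, n = 6 each) and higher in 6 of 6 pairs, by 0.04 to 0.05 on the log2 scale in lavages 1 and 2 and by 0.36 to 0.68 in lavages 3 to 6. The ratio to Morrbid of 21.2% of all tested genes was higher in 6 of 6 pairs.

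Among p53 and FOXO regulators and targets, 4 of 17 were lower and 1 higher with TMM factors, against 1 lower and 4 higher with library totals alone. Klf2, a FOXO target, was lower under both (47.8 ± 13.4 CPM in TREM-1+ cells against 61.8 ± 12.6 CPM in TREM-1-; -0.39 ± 0.07, SE, edgeR adjusted p = 0.000847). Foxo3, a factor known to induce Bcl2l11 and Bbc3, was lower with TMM factors (410.7 ± 43.4 CPM in TREM-1+ cells against 486.0 ± 52.9 CPM in TREM-1-; -0.24 ± 0.04, adjusted p = 7.42e-06; 0.0743 with library totals alone). In the turnover list, 2 of 11 genes were lower and 0 higher with TMM factors, against 0 lower and 1 higher with library totals alone. The lower genes were Fbxw7, which marks MCL1 for breakdown (-0.25 ± 0.05, adjusted p = 0.00128), and the kinase gene Rps6ka1 (-0.12 ± 0.03, adjusted p = 0.00943). The death receptor gene Fas (-0.31 ± 0.08, adjusted p = 0.0065), Tnfsf10 (the death ligand TRAIL; -0.38 ± 0.10, adjusted p = 0.00951) and Cflar (-0.15 ± 0.04, adjusted p = 0.0103), an inhibitor of caspase-8, were the 3 of 10 death receptor genes called lower with TMM factors; with library totals alone 0 were lower and 2 higher.

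**Figure D5:**
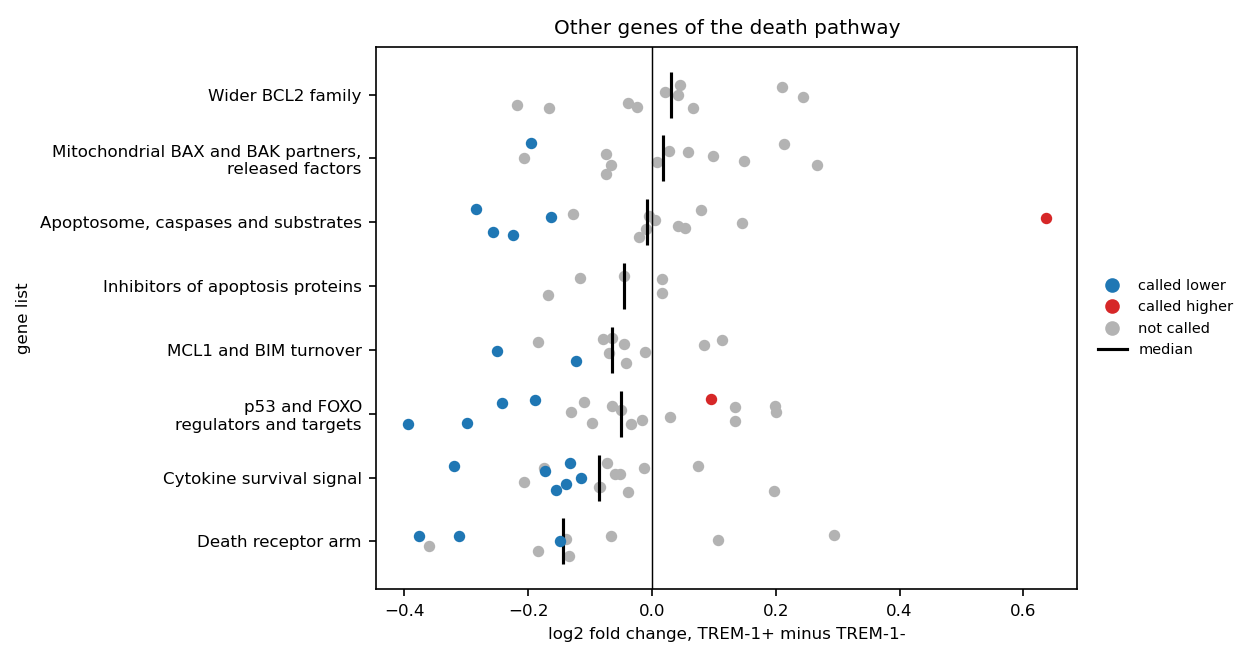
Log2 fold change (TREM-1+ minus TREM-1-, TMM factors) of each tested gene in 8 lists around the BCL2 family; colours mark the call and black bars the list median. Medians run from -0.14 in the death receptor arm to 0.03 in the wider family, and 20 genes are called lower against 2 higher.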

How the data were processed

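The authors deposited estimated counts per gene for 12 libraries of stranded, ribosomal RNA-depleted total RNA read as 100 bp pairs; kallisto 0.45.0, edgeR 3.42.4, R 4.3.0 and the build GRCm39 are listed, without roles, in the submitters' processing notes. The deposited counts are whole numbers, and rounding changed nothing. A deposited log2 CPM table of 17934 genes was recomputed from the counts to within 5e-09 (TMM, prior count 1) and not used further.

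Counts were fitted with edgeR 4.0.16 in R 4.3.3 (TMM, filterByExpr with minimum count 10 and total 15, robust quasi-likelihood F test), with lavage as a block and TREM-1+ minus TREM-1- as the term. Benjamini-Hochberg adjusted p-values over 18302 genes below 0.05 were called, and SEs come from the F statistic. The fit was tested on simulated counts. CPM uses TMM factors and paired differences log2 CPM. Lengths come from GENCODE M21. DESeq2 1.42.0 and limma 3.58.1 were alternatives. Unused per-sample columns numbered 0.

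Pairing comes from the series' design text; deviations from group means correlated at 0.127 to 0.502 within pairs, and 5 of 6 TREM-1+ libraries correlated best with their own partner (not that of lavage 3). No label states that each lavage pooled different mice; p-values then reflect only how these 6 pools varied, which may be technical. Lavages 1 and 2 were unusually close (chi-square per gene 6.88 in TREM-1+ and 5.26 in TREM-1-, where counting noise gives 1 and all other pairs 20.6 or more) and may not be independent. No source used here gives the strand setting of the counting. Exons of Bad, Bak1, Bcl2 and Bid overlap Gpr137, Ggnbp1, D630008O14Rik and Bcl2l13 on the opposite strand, and Bax overlaps Gm45808 on the same strand.

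All 10 members are named. The members and lists were chosen with earlier results of these data known. In other lists the named genes are the called ones, at most 3 in each direction by p, and the genes a sentence turns on. Xiap and Birc3 were named after their values under library totals were seen. The 3 most similar profiles were sought among genes of at least 5 CPM. Some genes that these rules name are not reported here.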

Additional observations from a re-analysis of the deposited data

Results flagged for a closer look

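Of 31 sets of 6 values examined for a sample far from the others (each member's level in each fraction, each member's paired differences and those of the summed ratio), 2 held one, and chance gives about 1 in 20. Pmaip1 stood at 37.3 CPM in the TREM-1+ library of lavage 4, where the next highest TREM-1+ library had 20.6 CPM. That library also had the lowest total count, 8626701, and the part of depth was not tested. Without lavage 4 the log2 fold change of Pmaip1 was 0.16 (edgeR adjusted p = 0.447), against 0.20 with it. Bid stood at 48.9 CPM in the TREM-1+ library of lavage 1, where the next highest had 43.9 CPM. Without lavage 1 Bid was still called lower (-0.22, edgeR adjusted p = 0.0416).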

How the results depend on the processing

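Under 160 alternatives of the 10 members' fold changes (16 each), 136 kept direction and side of the threshold, 14 lost a call, 4 gained one and 6 turned sign. The sign turned in members not called: Bcl2l11 in lavages 1 and 2 alone (-0.068), Bad in lavages 1 and 2 alone (-0.12), and, over fits leaving out 1 lavage, -0.066 (without lavage 6) to 0.071 (without lavage 4), also below 0 without lavage 3 (-0.012), and Bbc3 with library totals alone (0.079) and, leaving out 1 lavage, from -0.13 (without lavage 4) to 0.030 (without lavage 3). Bcl2 lost its call only without the block. The count of called members, 5, was 4 with library totals alone (1 lower, 3 higher), 4 to 5 when leaving out 1 lavage and 4 in lavages 3 to 6 alone. Without the replicate block, 0 members, 0 pathway genes and 83 genes in all were called (edgeR), against 5, 22 and 1797 with the pairing by lavage. Lavages 3 to 6 alone gave 1168 genes and 13 pathway genes. Pathway genes called numbered 12 without lavages 3 and 4 and 14 with library totals alone. The summed pro-death to survival difference was 0.30 as a mean of log2 CPM and 0.23 without Bax and Bak1, against 0.14. It was 0.10 without Mcl1 and 0.099 without lavages 3 and 4. For the alternatives that drop lavages, the fits hold fewer libraries; the cause of the other moves was not tested.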
